A study of Arabidopsis thaliana with 4 samples.

Results

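KANADI1 (KAN1) is a GARP-family transcription factor that promotes abaxial identity in lateral organs of Arabidopsis thaliana, and its binding was mapped here by chromatin immunoprecipitation and sequencing (ChIP-seq). The regions described are those that lay close together on a chromosome. They were chosen by their measured values: ChIP reads at least 3 times the control reads, and at least 2 other such regions with midpoints within 5000 bp. This rule selected 1128 of the 22103 regions that the authors called on the 5 nuclear chromosomes. The remaining 3038 regions with a ratio of at least 3 are the main comparison below, and 17937 called regions had a lower ratio. Of the 3038, 1338 had 1 other region of that ratio within 5000 bp and 1700 had none. The comparison group is therefore not made up of isolated regions only.

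The 2 KAN1 ChIP libraries came from 35S:FLAG-GR-KAN1 plants, in which the viral 35S promoter drives a FLAG-tagged KAN1 fused to the glucocorticoid receptor in most tissues and not only where KAN1 is normally expressed. Dexamethasone (DEX) lets this fusion enter the nucleus, and liquid-grown plants aged 10 days were treated for 45 min. The control libraries are listed with the same age and DEX treatment, and the paper names its control as DEX-treated Col-0. The 2 control libraries are labelled as KAN1-negative input, whereas the methods describe 1 control library from wild-type Col-0 chromatin, so the nature of the second could not be settled. Whole plants were used, and the data therefore do not say in which cells a region was bound.

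Transcription factors often contact a gene's regulatory DNA at several places, in the proximal promoter, in distant intergenic DNA, in introns or past the 3′ end. A locus with several called regions is therefore of interest as a possible extended regulatory domain, although ChIP enrichment alone does not show regulation. KANADI proteins act in leaf polarity against the adaxial class III homeodomain-leucine zipper (HD-ZIPIII) proteins and are known in Arabidopsis mainly as repressors.

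The called regions held 2.08e+06 reads of ChIP replicate 1 and 1.04e+06 of ChIP replicate 2, against 661648 of control 1 and 13441.5 of control 2. Control 2 was nearly empty, with at most 9 reads in any region, and the ratio therefore uses the summed reads of both controls. The values are not scaled for depth, and replicate 1 has the higher ratio in 1128 of 1128 clustered regions. The clustered regions held 12.7% of the reads of ChIP replicate 1 and 12.8% of those of ChIP replicate 2, against 6.08% of those of control 1 and 8.11% of those of control 2. Only the called regions were tabulated, so the total depth per library is unknown. Distances to genes are those of the deposited table and run from a region's midpoint. Values after ± are the SD of the 2 replicate ratios, which includes this difference in depth.

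The clustered regions fell into 340 loci when neighbouring members within 5000 bp were chained. Of these, 289 loci held 3 or more clustered regions, 1069 in all. By the rule, every member has at least 2 other regions of ratio 3 or more within 5000 bp, also in the smaller loci. In 43 loci only 1 region had enough neighbours itself, and in 8 loci 2 regions did, because the neighbours they counted had too few of their own. Loci of 3 regions were the most frequent, with 177, followed by 66 loci of 4 and 23 loci of 5. The 23 loci of 6 or more held 159 regions, and the longest chain had 12.

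Sequences from the 3 loci with the most regions and from 3 of the highest-ratio regions show what KAN1-enriched DNA looked like in the clusters. Each is a stretch of the TAIR10.1 reference (RefSeq) around the VGAATAW match nearest to a region's midpoint, written 5′ to 3′ on the strand of the match, with the 7-base match in capitals (V stands for A, C or G; W for A or T). Only this match is in capitals, and the CMT3 and AT5G11090 windows each hold a further match left in lower case. The study derived this motif from the same libraries, so its presence is not independent evidence of binding. Regions of these loci with no match are not shown, nor is the region 6626 bp upstream of EXPA1, the fifth highest, which had none.
RAV1 locus, chr1:4523111-4523137, minus strand: ccacaattctAGAATATtttgggcttc
RAV1 locus, chr1:4530905-4530931, plus strand: ctttgttaaaGGAATATtatccttcat
RAV1 locus, chr1:4532412-4532438, minus strand: tttttttaatGGAATAActataaacta
RAV1 locus, chr1:4536122-4536148, minus strand: tctctcttacCGAATAAaagcgtggca
RAV1 locus, chr1:4538536-4538562, minus strand: ttaaaactatAGAATATacaaaacgct
RAV1 locus, chr1:4541110-4541136, minus strand: actcttatagAGAATAAatacgtaagg
RAV1 locus, chr1:4544278-4544304, plus strand: cctacataaaGGAATATattgaccatt
HAT22 locus, chr4:17763144-17763170, minus strand: tatacaggcgCGAATAAttgaaccata
HAT22 locus, chr4:17764881-17764907, minus strand: aaagaggggaAGAATAAagacaaaagg
HAT22 locus, chr4:17767852-17767878, plus strand: ttatgaagtgGGAATAAtagttgcaag
HAT22 locus, chr4:17776534-17776560, plus strand: gagattgtgaAGAATAAtgataattgg
HAT22 locus, chr4:17777641-17777667, minus strand: aaaagtacacAGAATAAattgaattct
AP2 locus, chr4:17395602-17395628, plus strand: ttgaaaagtcGGAATAAttcgttggtc
AP2 locus, chr4:17397626-17397652, plus strand: ggggtaaatgGGAATAAtaatagtttt
AP2 locus, chr4:17398364-17398390, plus strand: tcattcctttAGAATAAatcattgcaa
AP2 locus, chr4:17400654-17400680, plus strand: ggttagagagAGAATAAtattatttta
AP2 locus, chr4:17404983-17405009, minus strand: ttttctctttGGAATATtattcatatt
CMT3 region, chr1:26243125-26243151, minus strand: cgaataaattAGAATATagaacgaaag
AT5G11090 region, chr5:3527504-3527530, plus strand: agatatacatGGAATATtatattcgca
SUC1 region, chr1:27049609-27049635, plus strand: ggaaaacaacAGAATATacaactcaag

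The matches in these windows differ in their first letter and in their last, every first letter that V allows occurs among them, and they lie on both strands. Over all 1236 matches in the clustered regions, AGAATAA made up 29.0%, AGAATAT 21.8%, GGAATAA 15.5%, GGAATAT 15.3%, CGAATAT 10.7% and CGAATAA 7.69%. In the other regions of ratio 3 or more, AGAATAA made up 27.3% and AGAATAT 26.7%.

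**Figure D1:**
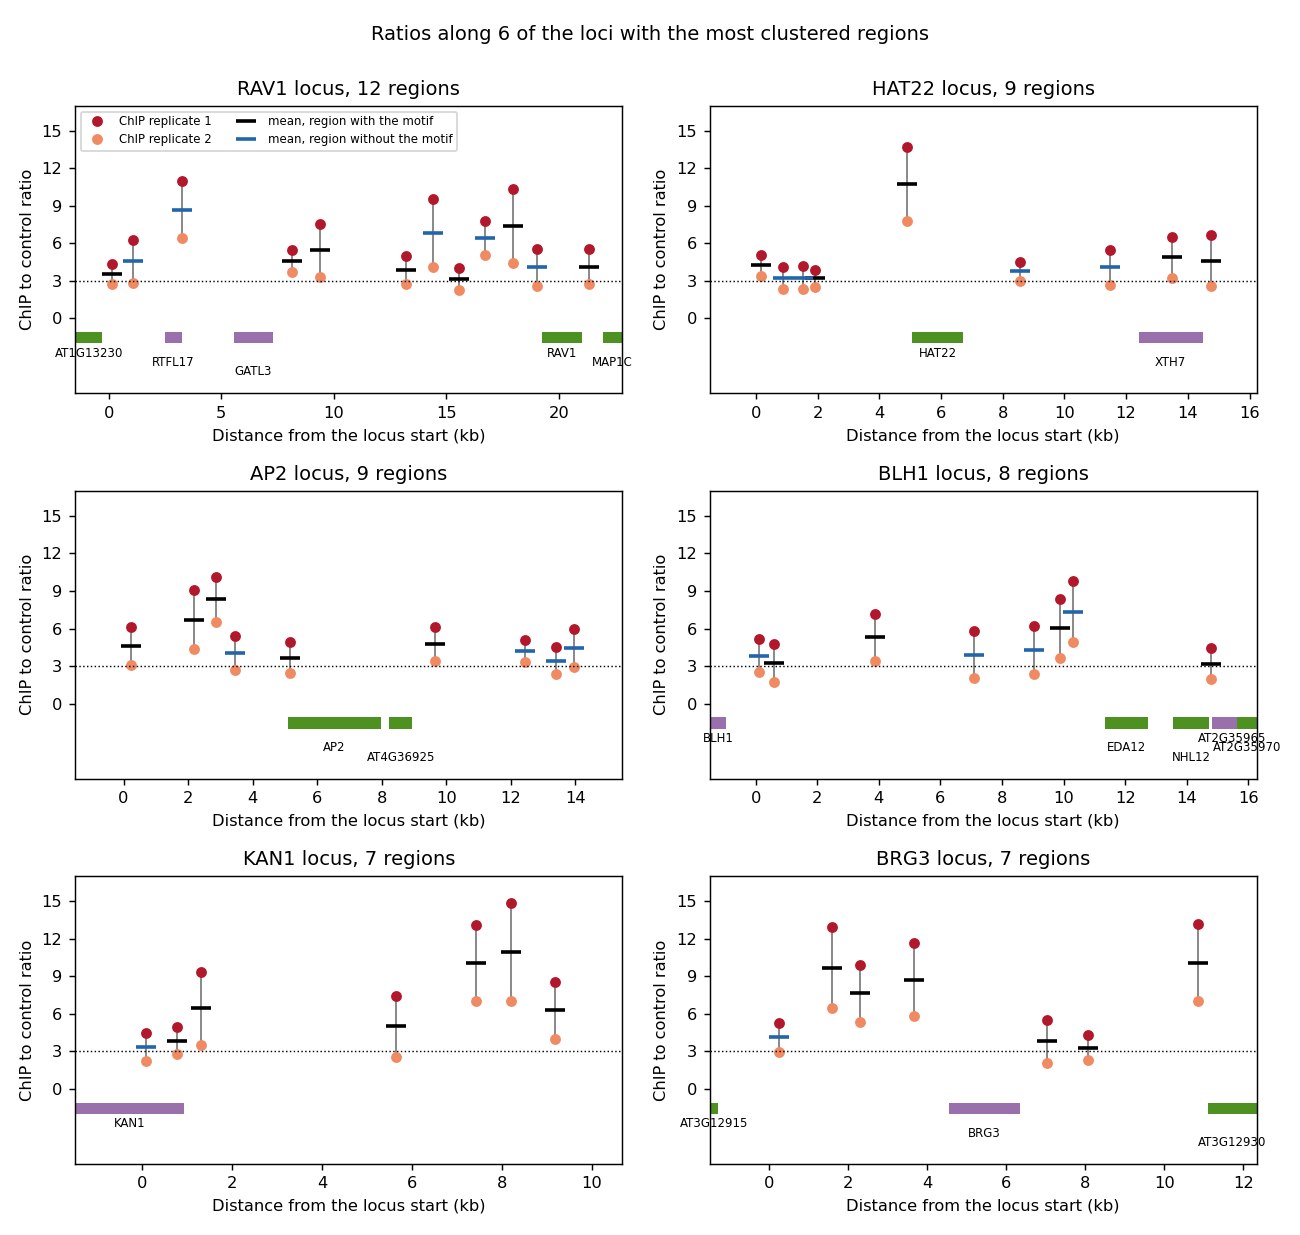
Ratios of ChIP to control reads in 6 of the loci with the most clustered regions (loci of equal number ordered by their highest ratio), against the distance of each region's midpoint from the locus start in kb. Red points are ChIP replicate 1, orange points ChIP replicate 2 and bars their mean (black where the region holds the motif, blue where it does not), the dotted line is the threshold of 3, and boxes are reference gene models (green on the plus strand, purple on the minus strand). The highest mean ratio is 8.68 at the RAV1 locus, 10.7 at the HAT22 locus, 8.33 at the AP2 locus, 7.34 at the BLH1 locus, 10.9 at the KAN1 locus and 10.1 at the BRG3 locus.

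The largest locus spanned 21552 bp around RAV1, which encodes a transcription factor with AP2 and B3 DNA-binding domains (chr1:4522938-4544489). Its 12 regions had mean ratios between 3.16 and 8.68. A run of 8 of them lay between GATL3, a putative galacturonosyltransferase gene, and RAV1, at 222 to 11104 bp upstream of RAV1. The farthest, at 9835 and 11104 bp from RAV1, were nearer to the divergent GATL3, at 2269 and 1000 bp upstream of it. The strongest of this run lay 1274 bp upstream of RAV1. It had 685 and 290 reads in the ChIP libraries, against 65 and 1 in the controls, a mean ratio of 7.39 ± 4.23 (n = 2). The region nearest to RAV1, at 222 bp, had 127 and 60 ChIP reads against 22 and 1 control reads and a mean ratio of 4.07 ± 2.06 (n = 2). Enrichment thus peaked beyond the region closest to the gene. The highest ratio of the whole locus was at another gene, RTFL17, of the ROTUNDIFOLIA-like family of small peptides: 241 and 141 ChIP reads stood against 22 and 0 control reads, a mean ratio of 8.68 ± 3.21 (n = 2). This region held no VGAATAW match, and 7 of the 12 did. With 10 reads added to both ChIP and control reads, 9 of the 12 regions still met the rule, as did 5 of the 9 at HAT22, 8 of the 9 at AP2 and 4 of the 8 at BLH1, the loci described next.

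The HAT22 locus (chr4:17762967-17777856) held 9 regions over 14890 bp, and 1 of them stood out. HAT22 encodes a class II HD-ZIP protein, a family linked to auxin and shade responses. The region 183 bp upstream of HAT22 had 438 and 248 ChIP reads against 32 and 0 control reads, with ratios of 13.7 and 7.74 in replicates 1 and 2. The other regions of the locus had mean ratios between 3.19 and 4.88. They lay on both sides of the gene: 4 clustered further upstream, at 3147 to 4921 bp, and the rest beyond its 3′ end towards, inside and past XTH7, a xyloglucan endotransglucosylase/hydrolase gene. Both the strong region and the one next to XTH7's 5′ end held VGAATAW, and 5 of the 9 did.

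At the AP2 locus (chr4:17395502-17409641) 9 regions covered 14140 bp. APETALA2 (AP2) specifies floral organ identity and belongs to the AP2/ERF transcription factors. Its upstream DNA held 4 regions, at 1638 to 4872 bp, and the highest of them, at 2244 bp, had 152 and 98 ChIP reads against 15 and 0 control reads (mean ratio 8.33 ± 2.55, n = 2). A neighbour 2909 bp upstream had 589 and 284 ChIP reads against 63 and 2 control reads, a lower mean ratio of 6.72 ± 3.32 (n = 2) from far more reads. A further region in the 5′ UTR exon of AP2 had a mean ratio of 3.66 ± 1.73 (n = 2). The remaining 4 lay downstream of AP2, between AT4G36925 and SPATULA (SPT), a bHLH gene of carpel and leaf growth, with mean ratios from 3.43 to 4.74. They were at 4665 bp or more upstream of SPT.

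BLH1, a BELL-class homeodomain gene, and its divergent neighbour EDA12 flanked 7 of the 8 regions of the fourth locus (chr2:15093379-15108378). Across this interval the ratio was highest at the EDA12 end. The region 1089 bp upstream of EDA12, which is 11256 bp upstream of BLH1, had 343 and 171 ChIP reads against 33 and 2 control reads (mean ratio 7.34 ± 3.47, n = 2). The region 1060 bp upstream of BLH1 had 82 and 40 ChIP reads against 15 and 1 control reads (mean ratio 3.81 ± 1.86, n = 2). None of the 8 reached a false discovery rate of 0.05 in replicate 2 in the deposited table.

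The KAN1 locus held 7 regions, 6 of them beside KAN1, from inside its coding sequence towards the neighbouring glutamine synthetase gene GLN1;4 (chr5:5410834-5420179). The strongest lay over AT5G16567 in the deposited annotation, 7623 bp upstream of KAN1 and 2695 bp from GLN1;4. It had 742 and 352 ChIP reads against 50 and 0 control reads, ratios of 14.8 and 7.04. The next, 6830 bp upstream of KAN1, had 354 and 190 ChIP reads against 26 and 1 control reads (mean ratio 10.1 ± 4.30, n = 2). Close to the gene the ratios were lower: 6.44 ± 4.12 at 707 bp, 3.83 ± 1.53 at 173 bp and 3.36 ± 1.58 in the coding exon (n = 2 each). The transgene carries KAN1 coding sequence, so the last value may include reads from the transgene DNA, whose part was not tested. The region at 173 bp lies inside the longer KAN1 model of the reference. Of the 7 regions, 6 held VGAATAW, and the coding region did not.

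The BRG3 locus (chr3:4117230-4128338) held several strong regions at once. BRG3 encodes a RING-finger protein related to BOTRYTIS SUSCEPTIBLE1 INTERACTOR. Past its 3′ end lay regions with mean ratios of 9.69 ± 4.60, 7.63 ± 3.22 and 8.73 ± 4.13 (n = 2 each). On its other side, 333 bp upstream of AT3G12930, a region had 791 and 420 ChIP reads against 60 and 0 control reads, a mean ratio of 10.1 ± 4.37 (n = 2). The median mean ratio of its 7 regions was 7.63, the highest of the 10 loci named here for their number of regions.

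The other loci among the 10 had 7 regions each. The neighbouring auxin-response repressor genes IAA2 and IAA7 shared a locus of 11735 bp (chr3:8181724-8193458). At 171 bp upstream of IAA2 a region had 531 and 257 ChIP reads against 59 and 0 control reads, a mean ratio of 6.68 ± 3.28 (n = 2). At 1409 bp upstream of IAA7 the ratio was 3.10 ± 1.27 (n = 2), the lowest of the locus. The locus from PIRL2 to TIP2, a tonoplast water channel gene, reached 8.04, that around ABCG25, which encodes an exporter of abscisic acid, 6.28, and that from AT3G07340 to PUB9, a U-box gene, 6.13. At the ABCG25 locus 1 of the 7 regions still met the rule with 10 reads added, against 4 to 6 at each of the other loci of 7 named here. In replicate 2 alone, without ChIP replicate 1, the rule was met by 4 of the 12 regions at RAV1, 3 of the 9 at AP2, 4 of the 7 at PUB9 and 3 of the 7 at each of KAN1, BRG3 and IAA2. It was met by no region at the HAT22, BLH1, PIRL2 and ABCG25 loci.

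**Figure D2:**
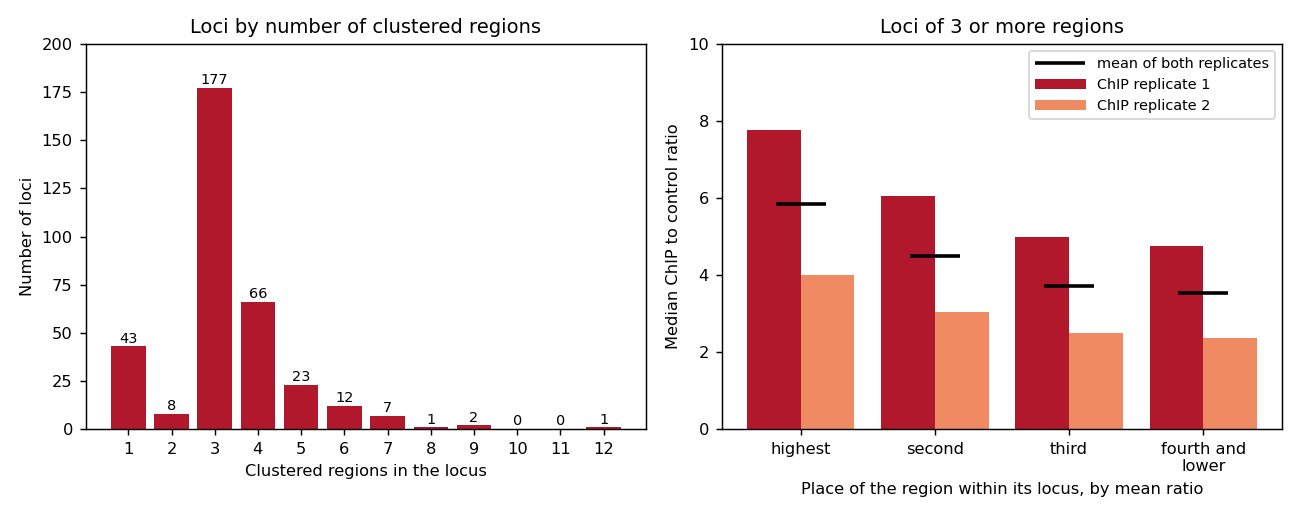
Left, the number of loci by how many clustered regions they hold. Right, for the 289 loci of 3 or more, the median ratio of ChIP to control reads by a region's place in its locus (red bars ChIP replicate 1, orange bars ChIP replicate 2, black lines the mean ratio). The mean ratio falls from left to right because the places were set by it.

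Among the 289 loci of 3 or more regions the median span was 4139 bp (quartiles 2913 and 5238 bp), and the shortest spanned 948 bp. Neighbouring midpoints were a median of 1243.5 bp apart, and 293 of 780 steps (37.6%) were at most 1000 bp. The called regions of a locus were separate for the most part, with a median gap of 874.5 bp, although 23 gaps were at most 100 bp. When regions with such small gaps were merged first, 1077 clustered regions in 327 loci remained. In 116 loci (40.1%) every region lay in a single intergenic interval, and in 93 loci (32.2%) at least 1 region overlapped a gene. Called regions of a ratio below 3 stood between the members in 92 loci.

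Within a locus the regions were unequal. The highest had a median mean ratio of 5.86, the second 4.50, the third 3.72 and the fourth and lower ones 3.53, an order that follows from ranking on that value. The best region of a locus was a median of 1.67 times as high as the lowest (quartiles 1.40 and 2.09, at most 3.54). The same region was the highest in both replicates in 222 of the 289 loci (76.8%). The ratios of both replicates share their control reads, which favours the same order. A VGAATAW match was present in 74.4% of the highest regions, 66.8% of the second, 65.4% of the third and 58.9% of the fourth and lower ones. In 80 loci all regions held a match, in 13 none did and in 196 some did.

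**Figure D3:**
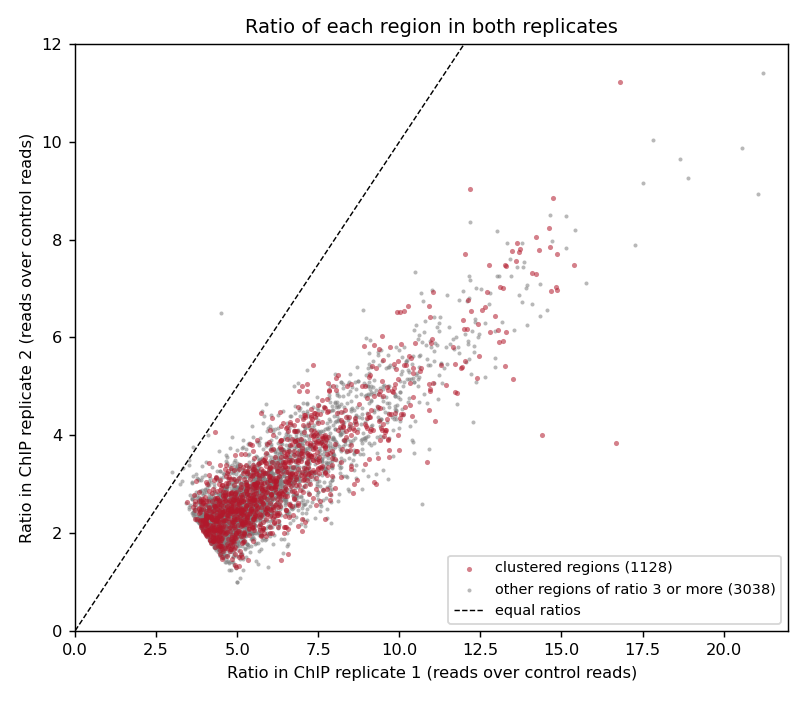
Ratio of ChIP to control reads in replicate 1 (x axis) and replicate 2 (y axis) for the 1128 clustered regions (red) and the 3038 other regions of ratio 3 or more (grey), with equal ratios dashed. All clustered regions and 3033 of the 3038 others lie below the dashed line, with a median of 5.76 and 2.88 in replicates 1 and 2 for the clustered regions and 5.37 and 2.67 for the others.

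The clustered regions had a median mean ratio of 4.29 (quartiles 3.60 and 5.48), against 3.99 (quartiles 3.42 and 5.0) in the other regions of ratio 3 or more. These values chose the regions and are given as a description, beside a background of 18.8% of all called regions that reached a ratio of 3. A ratio of at least 6 was seen in 18.1% of the clustered regions and in 12.9% of the others. A ratio of at least 10 was seen in 25 clustered regions (2.22%) and 34 of the others (1.12%). Over all called regions these shares were 2.69% and 0.267%. Grouped by the number of neighbours of ratio 3 or more within 5000 bp, the median ratio was 3.87 with none, 4.17 with 1, 4.21 with 2, 4.45 with 3, 4.51 with 4, 4.22 with 5 and 4.88 in the 6 regions with 6. Clustered regions were somewhat shorter, with a median of 327 bp against 362 bp in the others. Their reads were similar, with medians of 205 and 103 in ChIP replicates 1 and 2 and 35 in the summed controls, against 212, 103 and 38 in the other regions.

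Replicate 2 alone reached a ratio of 3 in 520 clustered regions (46.1%) and in 1109 of the others (36.5%). At a false discovery rate of 0.05, the deposited table called in replicate 2 348 clustered regions (30.9%) and 891 of the others (29.3%), against 5.93% of all called regions. That rate comes from the same contrast as the rule. Every region of a locus reached 3 in replicate 2 in 26 of the 289 loci, and none did in 36. The ratio in replicate 1 was a median of 2.00 times that in replicate 2 (quartiles 1.78 and 2.26), close to the 2.01-fold difference in their total reads. Among clustered regions with a mean ratio of at least 9, the widest disagreement was beside WRKY47, a WRKY transcription factor gene, where 100 and 23 ChIP reads stood against 6 and 0 control reads, giving 16.7 and 3.83. Beside BGAL1, a beta-galactosidase gene, 72 and 20 ChIP reads against 5 and 0 control reads gave 14.4 and 4.0. Both regions were picked after their values were seen, and both rest on very few control reads, as did 20 clustered regions with at most 10.

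The highest ratio of all clustered regions was 14.0 ± 3.95 (n = 2), in the interval between AT1G69760 and CMT3, the gene of a DNA methyltransferase (chr1:26242883-26243267). It had 723 and 483 ChIP reads against 41 and 2 control reads and lay 5243 bp from CMT3, on its 3′ side. AT1G69760 was nearer, at 2366 bp. A region 5527 bp from NUDT17, which encodes a Nudix hydrolase, and 2756 bp from AT2G01680 followed. It had 295 and 177 ChIP reads against 20 and 0 control reads (mean ratio 11.8 ± 4.17, n = 2). Between AT5G11090 and SYTD, 775 and 437 ChIP reads stood against 48 and 5 control reads (mean ratio 11.4 ± 4.51, n = 2), and that region held 6 VGAATAW matches, the most in a clustered region and a number that 1 other, beside FLA16, also had. At SUC1, a sucrose transporter gene, the region was 4542 bp upstream (mean ratio 11.4 ± 5.59, n = 2), and at EXPA1, an expansin gene, 6626 bp upstream (mean ratio 11.3 ± 5.07, n = 2). The EXPA1 region was nearer to AT1G69526, at 2013 bp. None of these 5 was within 1 kb of a gene in the deposited annotation.

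The rest of the top 10 had mean ratios between 10.9 and 11.3. They lay beside CAX1, a vacuolar calcium exchanger gene, DEAR2, an AP2/ERF-type factor gene, AT1G55690, KAN1 and LOV1, a NAC factor gene. At CAX1 and LOV1 the flanking gene on the other side was nearer, at 1529 and 3058 bp. The KAN1 region overlapped AT5G16567 and was nearer to GLN1;4, at 2695 bp, than to KAN1. At the other end, 10 members had a ratio of exactly 3.0, among them regions near GA2OX6, NRT1.1 and PCR2. Just outside it, regions near MIR167a, CPC and AT5G66440 had a ratio of 2.99 each and also had 2 neighbours. Of the genes flanking these regions, DMC1 was nearer than MIR167a and AT2G46420 nearer than CPC.

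**Figure D4:**
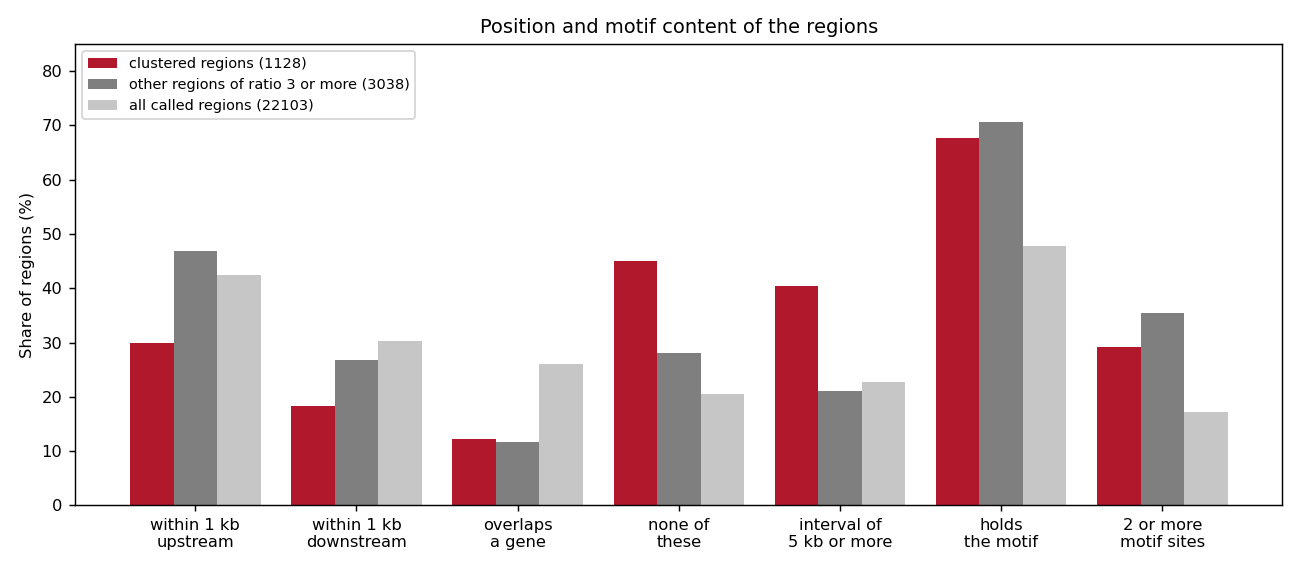
Share of regions in percent for the 1128 clustered regions (red), the 3038 other regions of ratio 3 or more (dark grey) and all 22103 called regions (light grey), by position in the deposited annotation and by VGAATAW content. The interval share is over intergenic regions only. Within 1 kb upstream of a gene lie 30.0% of the clustered regions, 46.8% of the others and 42.4% of all.

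Fewer clustered regions than other regions of ratio 3 or more lay close to a gene. In the deposited annotation 338 of 1128 (30.0%, 95% Wilson interval 27.4 to 32.7%) were within 1 kb upstream of a gene, against 46.8% (45.0 to 48.6%) of the other regions of ratio 3 or more. The intervals cover counting error only and treat regions of a locus as separate, which they are not. Within 1 kb downstream of a gene lay 18.3% of the clustered regions and 26.8% of the others. No gene was overlapped or within 1 kb for 44.9% of the clustered regions and 28.1% of the others. Among intergenic regions, the nearest gene was a median of 1030.5 bp from a clustered region and 618 bp from one of the others, and it was over 3 kb away for 9.09% of the intergenic clustered regions and 3.31% of the intergenic others.

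The intergenic intervals around clustered regions were longer, with a median of 4368.5 bp against 2783 bp for the other regions of ratio 3 or more, and 40.4% of the intergenic clustered regions against 21.0% of the others lay in one of at least 5000 bp. A rule that asks for several regions within 5000 bp can be met more readily where more intergenic DNA is present, and how far interval length accounts for the shares was not tested. Divergent gene pairs flanked 41.2% of the intergenic clustered regions and 38.0% of the others, convergent pairs 11.8% and 9.35%, and tandem pairs 47.0% and 52.7%. Coding sequence held 16 clustered regions (1.42%), against 1.05% of the other regions of ratio 3 or more and 4.67% of all called regions. Overlap with a gene was recorded in the deposited table for 12.2% of the clustered regions and 11.6% of the others, and this depends on the gene models and on what counts as overlap. The midpoint lay inside a protein-coding gene of the reference for 20.2% of the clustered regions and 21.3% of the others, and any base did for 28.4% and 37.9%. The 1 kb upstream shares were 29.3% and 45.5% with the genes of the reference.

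VGAATAW was found in 763 clustered regions (67.6%, 95% Wilson interval 64.9 to 70.3%) and in 70.6% (68.9 to 72.2%) of the other regions of ratio 3 or more, against 47.7% of all called regions. The intervals overlap. In uncalled windows of the same size, starting 1000 bp beyond each end of a region, the share was 29.3% around the clustered regions and 32.0% around the others. Shorter regions have less room for a match, and in a fixed 300 bp around the midpoint the shares were 64.7% and 65.8%. Matches per kb were 3.26 in clustered regions and 3.39 in the others. At least 2 matches were present in 29.2% of the clustered regions and 35.5% of the others.

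The ratio was higher in regions with more matches. In clustered regions its median was 4.03 without a match, 4.32 with 1, 4.56 with 2 and 5.05 with 3 or more. In the other regions of ratio 3 or more it was 3.83, 3.95, 4.06 and 4.45. Regions with more matches were also longer, with a median of 299 bp without a match and 409 bp with 3 or more in the clustered group. Where a clustered region held several matches, neighbouring ones were a median of 70 bp apart, and 53.7% of the 473 such pairs were on the same strand. The central 50% of a region's length held 65.1% of the matches in clustered regions and 66.0% in the others.

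Other short sequences were searched on both strands for comparison. CACGTG, the G-box bound by many bHLH and bZIP factors, was in 11.3% of the clustered regions, 11.9% of the other regions of ratio 3 or more, 6.53% of the windows flanking clustered regions and 7.83% of all called regions. AATNATT, the core of HD-ZIP sites, was in 45.0%, 46.9%, 27.7% and 31.1%, and can share bases with a VGAATAW match. TGTCTC, an auxin response element bound by ARF proteins, was in 19.8%, 21.4%, 14.9% and 15.6%. The median GC content was 31.8% in clustered regions, 32.0% in the others and 33.5% in the flanking windows. A match in a window says nothing about whether a factor bound there.

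Each of the 5 nuclear chromosomes had clustered regions. Chromosome 1 held 315, chromosome 2 held 181, chromosome 3 held 205, chromosome 4 held 172 and chromosome 5 held 255. They were between 26.4% and 27.8% of the regions of ratio 3 or more on each, at 8.74 to 10.4 per Mb.

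A gene was counted as beside a clustered region when the region overlapped it or it was the nearest gene on either side. By this measure 920 genes were beside at least 1 clustered region, of which 897 are in the reference table and make up 2.37% of its 37899 genes. At least 3 regions were beside 521 of them and at least 6 beside 29. GATL3 and RAV1 had 9 each, HAT22 had 8, and LBD37, a LOB-domain regulator of nitrogen-responsive genes, had 7. NIA1, a nitrate reductase gene, and WRKY47 had 6 each.

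**Figure D5:**
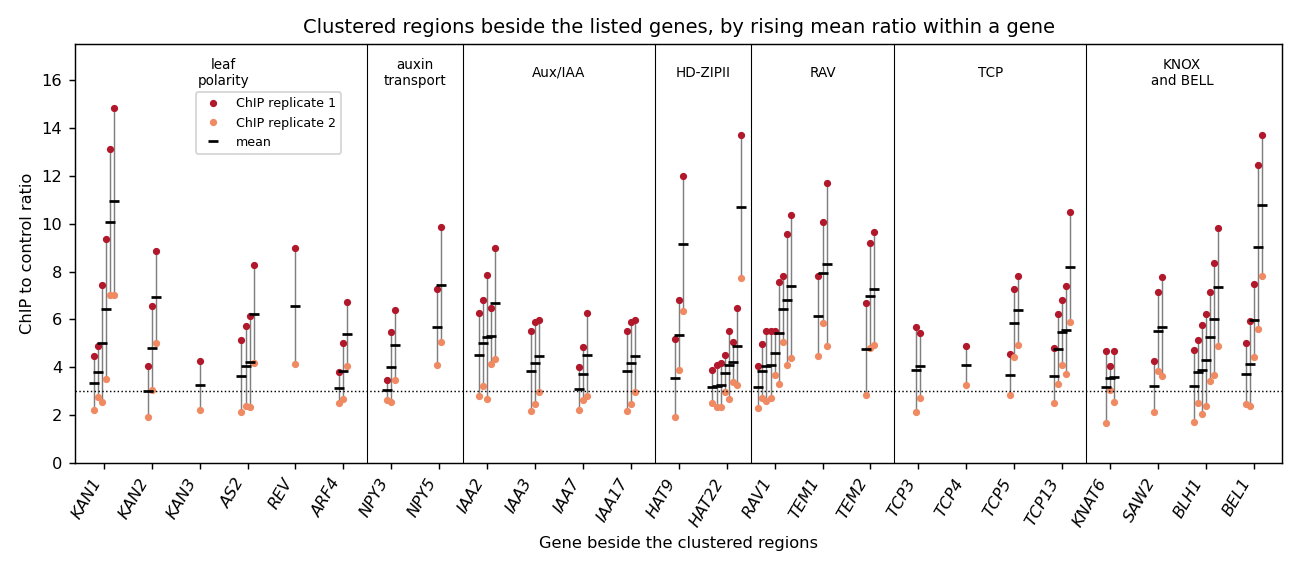
Ratio of ChIP to control reads of every clustered region beside a listed gene, grouped by gene and list, with ChIP replicate 1 in red, replicate 2 in orange and the mean as a bar. The dotted line is the threshold of 3 on the mean. KAN1, HAT22 and BEL1 have regions with a mean ratio above 10, and regions between 2 listed genes appear under both.

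Gene lists for development and auxin were then read against that 2.37% of genes, as counts without a test. That share is over reference genes with no filter for type, while the genes beside regions come from the deposited annotation. It is therefore only a rough background for these lists. Of 26 leaf polarity genes 6 were beside clustered regions: KAN1, KAN2, KAN3, AS2, REV and ARF4. A further 12 were beside other regions of ratio 3 or more only, 7 beside regions of lower ratio only, and 1 beside none. The list was drawn up with earlier results of these data known and includes genes the study picked, so its share is not independent evidence.

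AS2, an adaxial LOB-domain gene, had 4 clustered regions, upstream, in the gene and downstream. The strongest was 1079 bp upstream, with 355 and 180 ChIP reads against 41 and 2 control reads (mean ratio 6.22 ± 2.88, n = 2), and it had no VGAATAW match. The region overlapping AS2 had 287 and 120 ChIP reads against 55 and 1 control reads (mean ratio 3.63 ± 2.11, n = 2) and held 2 matches. KAN2, a close relative of KAN1, had 3 clustered regions, all beyond its 3′ end at 2884 to 5505 bp. The highest of these, at 4442 bp, had 345 and 195 ChIP reads against 39 and 0 control reads (mean ratio 6.92 ± 2.72, n = 2).

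ARF4, an abaxial auxin response factor gene, had 3 clustered regions upstream. The one at 2111 bp had 432 and 261 ChIP reads against 64 and 0 control reads, a mean ratio of 5.41 ± 1.89 (n = 2), and held 5 matches. At 464 bp and 3418 bp the mean ratios were 3.15 ± 0.925 and 3.85 ± 1.68 (n = 2 each). REV, an HD-ZIPIII gene of adaxial identity, had 1 clustered region, 6486 bp upstream (mean ratio 6.57 ± 3.43, n = 2). It lay between AT5G60680 and REV, and the paper reports no evidence that KAN1 regulates REV directly. KAN3 had 1 clustered region, 214 bp downstream (mean ratio 3.26 ± 1.45, n = 2). The REV region and the KAN3 region each had 2 neighbours of ratio 3 or more within 5000 bp that were not clustered themselves.

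Aux/IAA genes encode repressors of auxin-responsive transcription, and 4 of 29 were beside clustered regions. Besides IAA2 and IAA7, these were the neighbours IAA3 and IAA17, which shared 3 regions with mean ratios of 3.84 to 4.47. Those regions were 671 to 3424 bp upstream of IAA17 and 3282 to 6035 bp upstream of IAA3. Of the 23 auxin transport genes 2 had clustered regions, both of the NPY family, which acts with the PID kinase in organ formation. NPY5 had the higher ratios, 7.46 ± 3.42 at 1452 bp upstream and 5.69 ± 2.25 at 1969 bp (n = 2 each). None of the PIN efflux carrier genes in the list was beside a clustered region.

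Shares were higher in some small transcription factor lists. These lists too were drawn up with earlier results of these data known and include genes the study picked. Their shares are therefore not independent evidence. In the RAV and NGATHA list, 3 of 8 genes had clustered regions, all of the RAV branch. TEM1 and TEM2, repressors of flowering related to RAV1, had 3 each. Those of TEM1 had mean ratios of 7.96 ± 2.96 at 815 bp, 6.15 ± 2.35 at 2066 bp and 8.30 ± 4.82 at 3024 bp upstream (n = 2 each). Those of TEM2 had 4.77 ± 2.72 at 1297 bp, 7.28 ± 3.34 at 2681 bp and 7.0 ± 3.12 at 3664 bp upstream (n = 2 each). All 3 RAV genes thus carried their regions mainly in upstream DNA, although the farthest from RAV1 were nearer to GATL3. At none of the 3 genes was the highest mean ratio in the region nearest to it. At TEM1, however, the nearest was the highest in replicate 2, at 5.87.

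The list of CIN-type TCP genes, which limit cell proliferation in leaves, and their regulator MIR319A had 4 of 9 members beside clustered regions. TCP13 had 5, all between it and the divergent gene TMAC2. The farthest, at 4317 bp from TCP13 but 201 bp upstream of TMAC2, was the highest, with 356 and 200 ChIP reads against 34 and 0 control reads (mean ratio 8.18 ± 3.24, n = 2). The nearest, at 100 bp, had a mean ratio of 5.46 ± 1.94 (n = 2). TCP5 had regions on both sides, with 6.38 ± 2.05 (n = 2) at 3044 bp downstream. TCP3 had 2 regions downstream, with mean ratios of 3.90 and 4.08, and TCP4 had 1, 1109 bp upstream, with a mean ratio of 4.09.

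Homeobox genes of the KNOX and BELL classes had clustered regions in 4 of 10 cases. BEL1, an ovule identity gene, had 5 regions upstream. The one at 2751 bp had 631 and 359 ChIP reads against 45 and 1 control reads, a mean ratio of 10.8 ± 4.18 (n = 2), and the one whose midpoint lay 2 bp from the gene had 441 and 262 ChIP reads against 59 and 0 control reads, a mean ratio of 5.96 ± 2.15 (n = 2). SAW2, a BELL gene that limits leaf margin growth, had 3 regions upstream with mean ratios of 3.21 to 5.70. At KNAT6, a meristem KNOX gene, the 3 regions were weak, with mean ratios of 3.19 to 3.62. Of the 10 class II HD-ZIP genes, HAT9 joined HAT22, and its region at 272 bp upstream had 407 and 216 ChIP reads against 33 and 1 control reads (mean ratio 9.16 ± 3.97, n = 2).

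The 2 lists meant as background had no gene beside a clustered region, with 0 of 11 circadian clock genes and 0 of 10 housekeeping genes. With 2.37% of all genes beside one, lists this short could well hold none. These counts therefore set up no contrast with the other lists. Other regions of ratio 3 or more were the best beside 3 of the clock genes and 5 of the housekeeping genes, so these genes were not without enriched regions.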

How the data were processed

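ChIP-seq was measured in 2 libraries from DEX-induced 35S:FLAG-GR-KAN1 plants and 2 control libraries, grouped by the sample labels. The controls are listed with the same DEX treatment. The authors mapped reads to TAIR10, reduced duplicates, called regions over both replicates and deposited a table of 22109 regions, 6 of them mitochondrial and left out here. The read values per region and library are estimated counts as deposited by the authors, not scaled between libraries, and some are fractional. The deposited table also gives, from the authors, an adjusted p-value for either replicate (the false discovery rate), a rank product on the log2 scale, a score ranking the regions, and other values in bp (region size and distances to the nearest genes). Aligner and caller versions are not given in the sources used here.

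The ratio was the mean of both ChIP counts over the sum of both control counts. Regions with a ratio of at least 3 and at least 2 others with midpoints within 5000 bp were kept, and kept regions with midpoints at most 5000 bp apart were chained into loci. Nothing was tested, because the values that would be tested chose the regions, and no p-value was computed. Sequences came from TAIR10.1, whose bases matched TAIR10 transcript positions in 347 of 347 transcripts over their first 20 bases. Whether region starts count from 0 or 1 is not stated. Distances in the table run from the midpoint: midpoint plus distance met the reference gene start within 2 bp in 5260 of 20116 regions, against 233 from the region start. Motifs were searched on both strands. Named were the 10 loci with the most regions (ties by the higher best ratio), the 10 clustered regions with the highest ratio, 3 just inside and 3 just outside the threshold, and every listed gene beside a clustered region. The members and gene lists were chosen with earlier results of these data known. The steps were tested on simulated positions and planted motifs. Python 3.11.15 with numpy 2.4.6, pandas 2.3.3, scipy 1.17.1 and matplotlib 3.10.9 was used. Alternatives covered the threshold, distance, neighbours, controls, replicates, added reads, merging, motif and gene models. All columns of sample values were used. The sequence of 1 further high-ratio region is not reported here.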

Additional observations from a re-analysis of the deposited data

How the results depend on the processing

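The number of clustered regions depended strongly on the rule. A ratio of at least 2.5 gave 2016 regions in 575 loci and a ratio of at least 4 gave 361 in 120. A distance of 2500 bp gave 564 regions in 219 loci and 10000 bp gave 1805 regions, while at least 1 other region gave 2466 in 936 loci and at least 3 gave 446 in 136. With 10 reads added to ChIP and control 543 regions in 175 loci remained, all of them among the 1128. Requiring a false discovery rate within 0.05 in both replicates left 53 regions in 23 loci. Leaving out 1 library at a time gave between 199 and 2681 regions and between 70 and 788 loci: 199 regions without ChIP replicate 1, 2681 without ChIP replicate 2, 2340 without control 1, where 39.5% of the 1128 were kept, and 1248 without control 2, which is the same as control 1 alone. The median ratio lay between 3.96 and 61 in those settings, with 61 coming from the near-empty control 2 alone.

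The share with VGAATAW lay between 57.6% and 76.9% when 1 library was left out. It was 63.4% at a ratio of 2.5, 70.6% at 4, 64.7% at 2500 bp, 72.4% with 10 reads added, 77.4% with the false discovery rate in both replicates, 64.7% in 300 bp around the midpoint and 81.8% for GAATA alone. The share within 1 kb upstream lay between 30.9% and 35.4% when 1 library was left out. It was 33.0% at a ratio of 2.5, 26.8% at 2500 bp, 34.5% at 10000 bp, 35.6% with at least 1 other region, 23.3% with at least 3 and 34.0% with the false discovery rate in both replicates. The other regions past each of these settings' thresholds had shares of 41.5% to 51.9%.

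Scaling the ChIP replicates to equal totals gave 1137 regions, of which 1068 were among the 1128. No paired analysis was possible because the results come from no test. Depth limits single ratios most where control reads are few.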
